A study of Mus musculus with 30 samples.

Results

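Nf2, Pex13 and Cd3e are 3 genes of unlike function that were chosen by their ratios on these arrays: the log2 ratio of CRH-treated RNA to untreated RNA was highest after 24 h of CRH. The course of these ratios over time is therefore a description, with no test. They were found by spot number (18124 for Nf2, 11155 for Pex13 and 5502 for Cd3e) and by gene name, which added a second Nf2 spot, 1333. This gives 4 spots of the 22830 gene spots on the array, and 3 of the 4 were among the 14375 spots whose intensity was past the lowest 10% in each channel on all 30 arrays. The Nf2 spot 1333 fell below that limit on 1 of 30 arrays, replicate 5 at 6 h, so its values come from the same normalisation without the limit. The deposited name of the Cd3e spot calls its clone similar to CD3 antigen epsilon, while the names of the other spots give the gene outright. The study's methods state that array clones of selected candidate genes were sequenced to check their identity, without naming those genes there. Whether this covered the Cd3e clone was not settled here. Hybridisation of other RNAs to any of these spots was not examined, so each value belongs to a spot as named.

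The RNA came from AtT-20, a mouse tumour line of the pituitary corticotrope, the cell that secretes ACTH when corticotropin-releasing hormone (CRH) binds its receptor. Cells of every group had been deprived of fetal calf serum and were then given 100 nM human/rat CRH for 1, 3, 6, 12 or 24 h, or were left untreated in the same serum-free medium and harvested alongside. Treated and untreated RNA of a time point were hybridised together on 6 spotted cDNA arrays, 3 with the CRH-treated RNA labelled with Cy3 and 3 with it labelled with Cy5, 30 arrays in all. Each set of 6 arrays was hybridised with a single pair of RNA extracts: an SD over them measures labelling, hybridisation and scanning, and the 24 h values of all 3 genes rest on 1 culture pair of a single cell line.

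Merlin, the product of Nf2, is a tumour suppressor with a FERM domain that links the cell membrane to actin and acts upstream of the Hippo kinases, which restrain the growth-promoting transcription regulators Yap1 and Tead. Pex13 is a membrane protein of the peroxisome, where it forms part of the pore through which the receptor Pex5 carries enzymes inside. Cd3e is a signalling chain of the T cell receptor complex, a defining product of T cells. CRH acts in corticotropes mainly through cyclic AMP, protein kinase A and the factor CREB, which binds the cyclic AMP response element (CRE).

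Because the 3 genes had similar courses and CREB is the best known end point of this pathway, the stretches upstream of their transcription starts are shown, from 250 to 41 bases before the start, in RefSeq's promoter table for GRCm38.p6. All 3 genes lie on the minus strand, Nf2 at chr11:4757639-4849544, Pex13 at chr11:23646843-23665883 and Cd3e at chr9:44998735-45009663, and for Nf2 the outer of 2 annotated starts was taken. The last 12 bases shown for Cd3e lie inside the annotated gene, which has a longer transcript. Lower case is plain sequence, and capitals mark a full CRE (TGACGTCA) or its half-site (TGACG, or CGTCA on the other strand).
Nf2, chr11:4849585-4849794: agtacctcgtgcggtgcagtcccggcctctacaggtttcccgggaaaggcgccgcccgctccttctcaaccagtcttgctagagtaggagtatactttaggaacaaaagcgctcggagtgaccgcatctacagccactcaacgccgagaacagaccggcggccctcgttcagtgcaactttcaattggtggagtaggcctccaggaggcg
Pex13, chr11:23665924-23666133: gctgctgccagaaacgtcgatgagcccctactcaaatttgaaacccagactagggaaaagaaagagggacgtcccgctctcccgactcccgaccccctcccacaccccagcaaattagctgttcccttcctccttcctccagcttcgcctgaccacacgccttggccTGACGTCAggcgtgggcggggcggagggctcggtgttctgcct
Cd3e, chr9:45009652-45009861: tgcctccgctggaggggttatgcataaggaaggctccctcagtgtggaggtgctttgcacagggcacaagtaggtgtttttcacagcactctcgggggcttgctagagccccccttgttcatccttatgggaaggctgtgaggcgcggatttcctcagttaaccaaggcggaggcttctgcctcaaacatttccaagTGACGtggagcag

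The Pex13 stretch holds a full CRE that begins 83 bases before the start. Over all 32851 promoters in the table, 1.55% hold a full CRE within 250 bases. The Cd3e stretch holds 1 half-site, 53 bases before the start. All but its first base lie in the last 12 bases shown, inside the annotated gene. Over all promoters, 17.8% hold a half-site. Neither a full CRE nor a half-site was found within 250 bases of the Nf2 start. The AP-1 motif TGANTCA, found in 6.75% of promoters, was in none of the 3 windows. GC content over 250 bases was 59.2% for Nf2, 62.8% for Pex13 and 57.2% for Cd3e, against a median of 52.4% over all promoters. A match of letters is not a binding site, and these data hold no measure of binding.

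**Figure D1:**
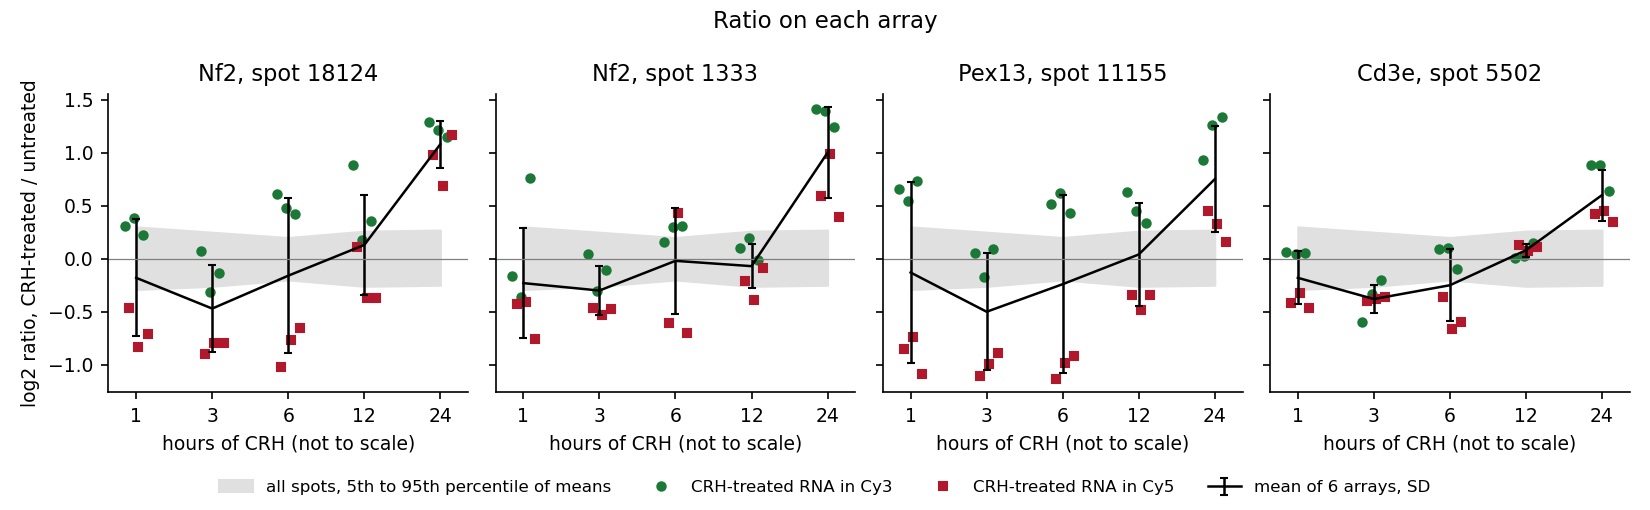
For the 4 spots, the y axis gives the log2 ratio (CRH-treated to untreated) of single arrays and the x axis the hours of CRH, evenly spaced. Circles are arrays with CRH-treated RNA in Cy3, squares in Cy5, black lines join the means of 6 arrays with SD bars, and the grey band spans the 5th to 95th percentile of the means of all 14375 spots. At 24 h every array of every spot lies above 0. The circles of Pex13 lie above its squares at every time, and those of Nf2 spot 18124 at every time but 24 h.

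Nf2 spot 18124 stood at 2.12-fold the untreated level at 24 h, a mean log2 ratio of 1.08 ± 0.22 (SD, n = 6 arrays), the highest mean of the 14375 spots at that time. In the Cy3 orientation the 3 arrays read 1.29, 1.21 and 1.15, and in the Cy5 orientation 0.98, 0.69 and 1.17. Both orientations therefore gave similar values, with means of 1.22 and 0.95. At the earlier times the orientations parted: the Cy3 and Cy5 means were 0.30 and -0.67 after 1 h, -0.12 and -0.82 after 3 h, 0.50 and -0.81 after 6 h, then 0.48 and -0.21 by 12 h. Over both orientations, the 1, 3, 6 and 12 h means were -0.18 ± 0.55, -0.47 ± 0.41, -0.16 ± 0.73 and 0.13 ± 0.47. The 24 h arrays overlapped with 1 of the 24 earlier arrays, a 12 h array in the Cy3 orientation at 0.88. Within each orientation they did not overlap with any earlier array. The 3 h mean was among the lowest of all spots, at rank 14327 of 14375 counted from the highest.

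The other Nf2 spot, 1333, is printed in a different block of the array and carries the same gene name. At 24 h its log2 ratio was 1.00 ± 0.43 (SD, n = 6), 2.00-fold, with 1.41, 1.39 and 1.24 in the Cy3 orientation and 0.59, 0.99 and 0.39 in the Cy5 orientation. Its earlier means in order of time were -0.23 ± 0.52, -0.30 ± 0.23, -0.02 ± 0.50 and -0.07 ± 0.21, so the spots of Nf2 had the same order of size at 24 h and both stood near or below 0 before. Its 24 h arrays overlapped with 2 of the 24 earlier ones, at 0.76 and 0.43. The latter is replicate 5 at 6 h, the array on which this spot was dim, with intensities of 147 and 197 against 884 to 5535 on the other 6 h arrays.

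Pex13 stood at 1.68-fold at 24 h, a mean log2 ratio of 0.75 ± 0.50 (SD, n = 6), the 6th highest mean of all spots. In the Cy3 orientation the arrays read 0.93, 1.26 and 1.34, and in the Cy5 orientation 0.45, 0.33 and 0.16. All 6 were above 0, but the orientations differed by 0.86. At the earlier times the orientations lay on either side of 0, except in Cy3 after 3 h: the Cy3 and Cy5 means were 0.64 and -0.90 after 1 h, -0.01 and -1.0 after 3 h, 0.52 and -1.01 after 6 h, then 0.48 and -0.39 by 12 h. Averaged over both they were -0.13 ± 0.85, -0.50 ± 0.55, -0.24 ± 0.84 and 0.04 ± 0.49. The 24 h arrays overlapped with 9 of the 24 earlier arrays, all in the Cy3 orientation. Within either orientation the 24 h values were above all 12 earlier ones.

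Cd3e stood at 1.52-fold at 24 h, a mean log2 ratio of 0.60 ± 0.24 (SD, n = 6), the 16th highest mean. The Cy3 arrays read 0.88, 0.88 and 0.64, and the Cy5 arrays 0.42, 0.45 and 0.35. At 3 h all 6 arrays were below 0, from -0.60 to -0.20 with a median of -0.37. At 1 h the arrays spanned -0.46 to 0.06, at 6 h -0.66 to 0.10 and at 12 h 0.01 to 0.15. All 6 arrays at 24 h lay above all 24 earlier ones, the highest of which was 0.15. The spread over the 6 arrays at 12 h, 0.06, was the smallest of any spot and time described here.

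The 3 spots thus shared a course of mean ratios below 0 from 1 to 6 h, with the lowest mean at 3 h. Their means were near 0 at 12 h and clearly above 0 at 24 h. At 3 h they were -0.47 for Nf2 spot 18124, -0.50 for Pex13 and -0.38 for Cd3e. All 3 lay below the 5th percentile of all spots at that time, -0.26. The step from 12 to 24 h was 0.95 for Nf2 spot 18124, 1.07 for spot 1333, 0.70 for Pex13 and 0.52 for Cd3e. All 4 spots passed a size rule at 24 h (a mean of 1.5-fold or more, every array having its sign), which 0.104% of the 14375 spots passed upward, or 0.162% of the 22830 spots without the intensity limit. None passed it at any other time, where 0.0974%, 0.146%, 0.0348% and 0.125% of spots passed upward in order of time. Separation of the 24 h arrays from all earlier arrays in each orientation was found for Nf2 spot 18124, Pex13 and Cd3e and for 0.0487% of spots in all, and separation over both orientations together for Cd3e and 0.0139% of spots. In the other direction, 0.00696% of spots had all 24 h arrays below all earlier ones. These shares are given as background only, because the same ratios chose the genes. Changes in RNA per cell and in the share of cells that make an RNA cannot be told apart in such bulk extracts.

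Arrays were quantified on 4 days, and these nearly coincide with the time points. The 24 h arrays shared their day with 2 arrays at 12 h, both with CRH-treated RNA in Cy5. Against these, the 24 h arrays of the same orientation were higher by 1.31 for Nf2 spot 18124, 0.90 for spot 1333, 0.73 for Pex13 and 0.32 for Cd3e. The 2 and 3 arrays did not overlap for any of the 4 spots. The share of all spots that part in this way was not counted. Because the genes were chosen for high ratios at 24 h, an effect of the day on them was not tested. The 3 h and 6 h arrays shared another day, and between them the mean of both orientations differed by 0.32, 0.29, 0.26 and 0.13 in the same order of spots. For Nf2 spot 18124, Pex13 and Cd3e that difference lay in the Cy3 orientation (0.62, 0.53 and 0.41), while the Cy5 arrays differed by 0.01, -0.01 and -0.16.

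**Figure D2:**
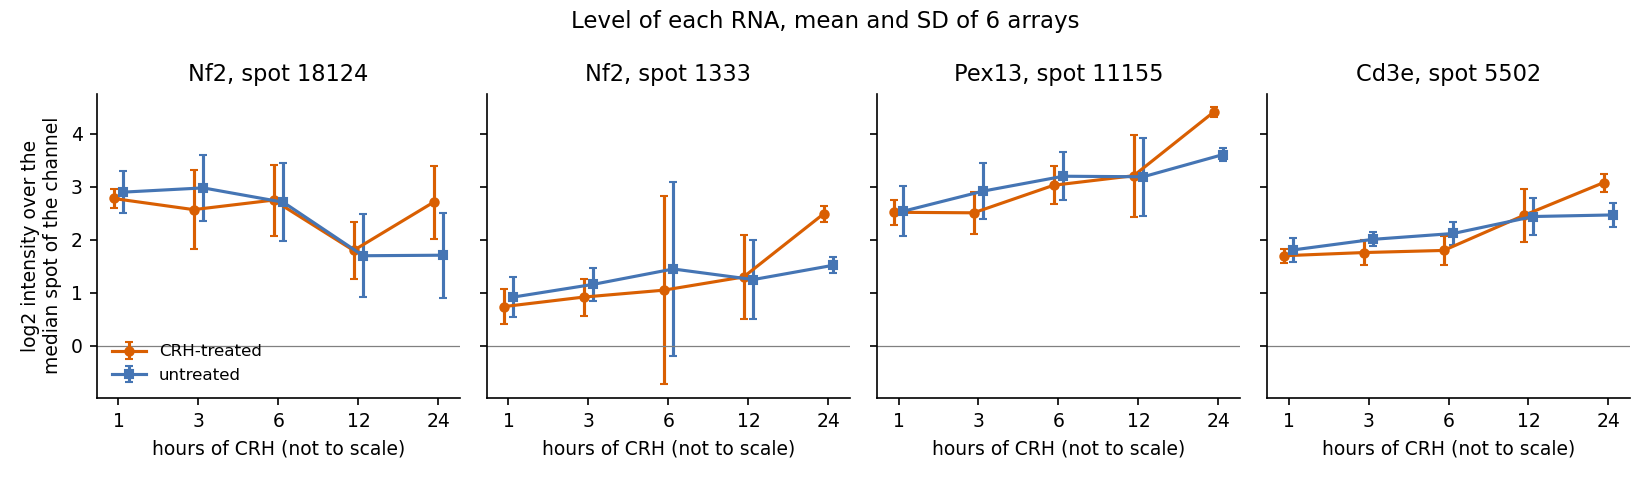
Level of the CRH-treated and of the untreated RNA at each spot, as log2 of intensity over the median gene spot of that channel and array (y axis), by hours of CRH (x axis, evenly spaced), mean and SD of 6 arrays. At 24 h the CRH-treated level lies above the untreated one at all 4 spots, and the untreated level of Nf2 spot 18124 is lower at 12 and 24 h than before while that of the other spots is not.

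Each channel was also followed on its own. Each intensity was set against the median gene spot of its channel, on the log2 scale, to give a level for each array. These levels were not normalised by loess, and the days of quantification nearly coincide with the times. The SD of the untreated level over 6 arrays at 24 h was 0.80 at Nf2 spot 18124 and 0.15 at spot 1333. It was 0.13 for Pex13 and 0.22 for Cd3e. For Pex13 the untreated level went from 2.54 at 1 h to 3.61 at 24 h and the CRH-treated level from 2.52 to 4.41. For Cd3e they went from 1.81 to 2.47 and from 1.70 to 3.08. Both channels thus stood higher at 24 h for these genes, the CRH-treated one more so. The Nf2 spots differed from each other in this respect. At spot 18124 the untreated level was 2.90 at 1 h and 1.71 at 24 h while the CRH-treated level was 2.78 and 2.71, and at spot 1333 the untreated level went from 0.92 to 1.52 and the CRH-treated from 0.74 to 2.49. Over all 14375 spots such a change of the untreated level from 1 to 24 h ran from -0.98 at the 5th percentile to 1.42 at the 95th, and that of the CRH-treated level from -1.06 to 1.49. The untreated change of -1.19 at Nf2 spot 18124 lay below the first range, and the CRH-treated changes of 1.88 for Pex13 and 1.75 at Nf2 spot 1333 lay above the other. From 12 to 24 h the untreated level differed by 0.02 at spot 18124, 0.27 at spot 1333, 0.42 for Pex13 and 0.03 for Cd3e, and the CRH-treated level by 0.91, 1.18, 1.2 and 0.62.

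Nf2 spot 18124, Pex13 and Cd3e were bright on most arrays, while Nf2 spot 1333 fell to 0.933 times the signal of the empty spots on its dimmest array. Intensities in the untreated channel ran from 4220 to 23228 for Pex13, 1651 to 14145 for Cd3e and 1995 to 14753 for Nf2 spot 18124, with median percentile ranks among gene spots of 95.9, 89.0 and 93.3. Those of Nf2 spot 1333 ran from 197 to 6408, with a median rank of 76.8. The untreated signal was a median of 45.2 times that of the empty spots for Pex13, 25.3 times for Cd3e, 29.1 times for Nf2 spot 18124 and 14.8 times for spot 1333. Levels of different spots depend on the printed DNA and are not compared between genes. The gene spots printed next to each of the 4 spots had mean log2 ratios at 24 h from -0.28 to 0.45.

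**Figure D3:**
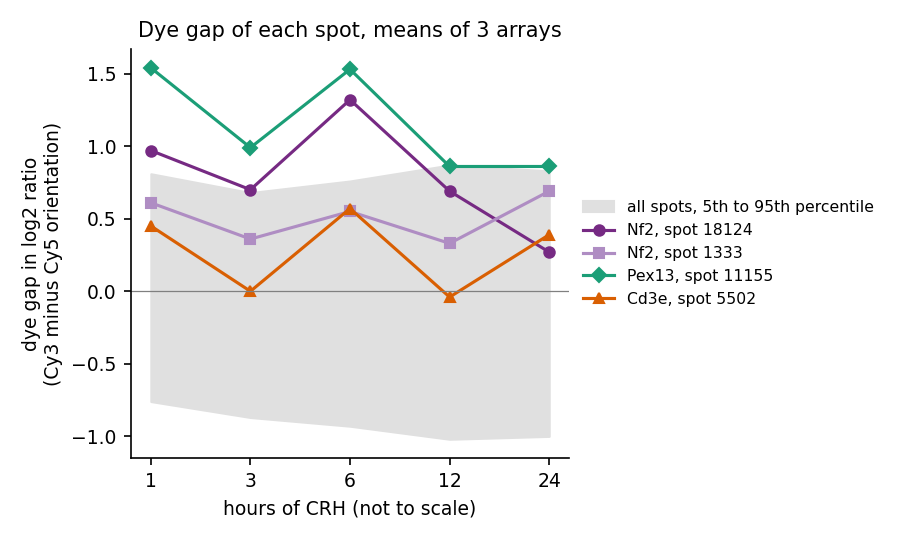
Dye gap, the mean log2 ratio in the Cy3 orientation minus that in the Cy5 orientation, 3 arrays each (y axis), by hours of CRH (x axis, evenly spaced), for the 4 spots. The grey band spans the 5th to 95th percentile of the 14375 spots, and Pex13 lies above or close to its upper edge throughout, between 0.86 and 1.54.

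How far the ratio depended on the dye was a measure separate from the mean over both orientations. In the study's methods an interaction of dye and time is a reason to set a spot aside, so this measure is not wholly independent of how the genes were chosen. Pex13 had a dye gap (Cy3 minus Cy5 orientation) of 1.54, 0.99, 1.53, 0.86 and 0.86 in order of time, where the 95th percentile of all spots was 0.81, 0.68, 0.76, 0.87 and 0.83. For Nf2 spot 18124 it was 0.97, 0.70, 1.32, 0.69 and 0.27. For Cd3e it moved between -0.04 and 0.57, and for Nf2 spot 1333 between 0.33 and 0.69. A dye effect of equal size and opposite sign in the orientations would cancel in the mean of each time point, which holds both equally. Whether the dye effect at these spots had that form was not tested, nor was its part in the 24 h means.

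The interaction of time and dye orientation in a linear model over the 30 arrays had p = 0.0035 for Nf2 spot 18124 (n = 30 arrays, Benjamini-Hochberg adjusted p = 0.036), p = 0.00017 for Pex13 (adjusted p = 0.0061) and p = 0.00015 for Cd3e (adjusted p = 0.0057). All 3 thus lay under the threshold of 0.01, as did 14.8% of the 14375 spots, so their ratios depended on the dye to an extent that differed between times. In the deposited ratios p was 0.0015, 0.006 and 0.0048 in the same order (n = 30 arrays). Nf2 spot 1333 did not pass over its 30 arrays (n = 30, p = 0.82, against 11.2% of the 22830 spots without the intensity limit). With hours as a single number in the model none of the 3 passed (n = 30 arrays, p = 0.015, 0.032 and 0.94), where 7.57% of spots did. Normalisation decided the call for Nf2 spot 18124, with p = 0.084 (n = 30 arrays) for a single loess curve per array and p = 0.35 for median centring, while Pex13 and Cd3e passed under both. These p-values cover how much repeat hybridisations vary, not how much cultures do.

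**Figure D4:**
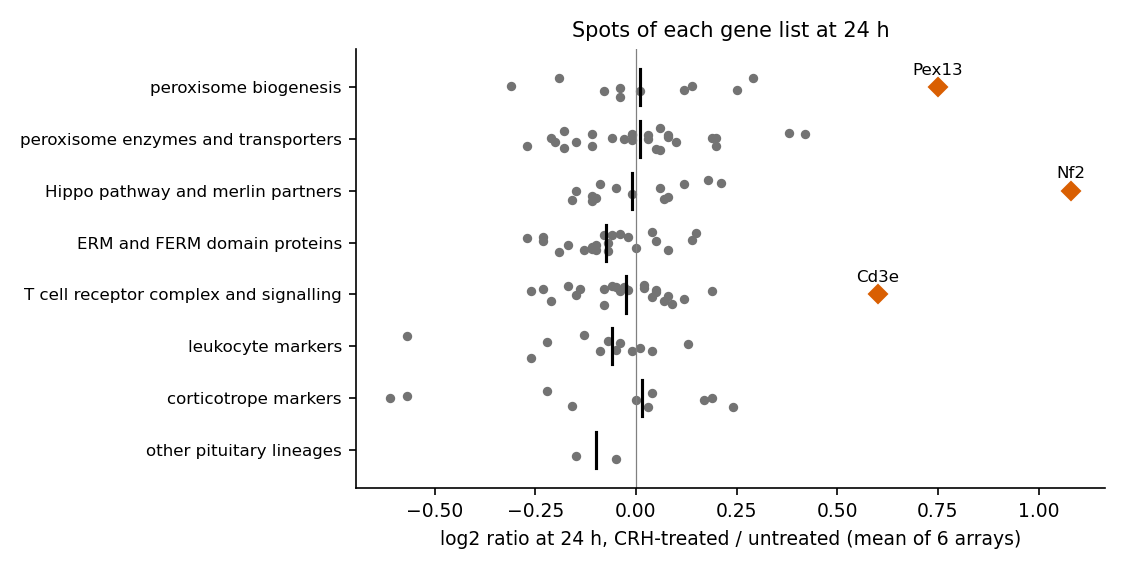
Mean log2 ratio at 24 h over 6 arrays (x axis) of every measured spot of 8 gene lists (rows), with grey points for single spots, orange diamonds for Pex13, Nf2 spot 18124 and Cd3e, and black bars for list medians. The 3 diamonds, at 0.75, 1.08 and 0.60, lie to the right of all other spots of their lists, whose highest values are 0.29, 0.21 and 0.19.

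No other measured gene of the same pathways reached 1.5-fold upward at 24 h. The lists were chosen with earlier results known, and genes named for their role were in part chosen after their values were seen. The counts stand beside the 0.104% of all spots that passed the size rule upward. With so small a share, most lists of this size would hold no such spot, so a count of 0 does not set these lists apart. Of peroxisome biogenesis, 10 measured spots other than Pex13 had means from -0.31 to 0.29 at 24 h, with a median of -0.01 beside -0.01 over all spots, and 0 of them passed the size rule. Pex16, which helps to form the peroxisome membrane, had 0.29 ± 0.22 (SD, n = 6) on spot 21150 and 0.12 on spot 15257. Pex5, the import receptor that docks at Pex13, had 0.25 ± 0.26, and Pex14, the other docking protein, had -0.31 ± 0.21 with 6 of 6 arrays below 0. Pex2, a ubiquitin ligase that recycles the receptor, had -0.19, -0.08 and -0.04 on its 3 spots, and Pex3, which inserts membrane proteins, had 0.01. The 26 measured spots of peroxisome enzymes and transporters ranged from -0.27 to 0.42 with a median of 0.01, again with 0 past the size rule. At the upper end were Gnpat, the enzyme that starts ether lipid synthesis, at 0.42 ± 0.47 and Abcd4, a transporter, at 0.38 ± 0.23 with 6 of 6 arrays above 0. Acaa1a, a thiolase of beta-oxidation, at -0.21 ± 0.47 was near the lower end. There, Idh1, which makes NADPH, had -0.27 ± 0.16 with 6 of 6 below 0 on spot 14796. The other measured Idh1 spot, 23458, had -0.11 ± 0.29.

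For Nf2 the list held the Hippo kinases and partners of merlin. The 14 measured spots besides Nf2 spot 18124 lay between -0.16 and 0.21 at 24 h with a median of -0.03, and 0 passed the size rule. Stk4, a Hippo kinase, had 0.12 ± 0.75 and -0.10 ± 0.10 on its 2 measured spots, and Lats2, the kinase below it, had -0.05 ± 0.27 on spot 5997. Rac1, a GTPase that merlin restrains, had -0.01 and -0.15. Sptbn1, a spectrin of the membrane skeleton, had 0.21 ± 0.39 and 0.06 ± 0.34 on 2 spots, Ddb1, a subunit of a ubiquitin ligase that merlin binds, 0.18 ± 0.16 with 6 of 6 arrays above 0, and Ajuba, a scaffold that inhibits Lats kinases, -0.16 ± 0.27. The spots of Yap1 and of Tead1 to Tead4 fell below the intensity limit on at least 1 array. Other spots of the list below that limit had wider values in both directions. Among them, Cyr61 had 0.72 ± 0.69, Axl 0.56 ± 0.27 with 6 of 6 arrays above 0, and Lats2 spot 3684 had -0.47 ± 0.79. Among the 22 measured spots of ERM and other FERM domain proteins the range was -0.27 to 0.15 with a median of -0.08, and moesin (Msn), a close relative of merlin, had -0.07 ± 0.21. Krit1, a protein of endothelial junctions, had -0.27 ± 0.75, -0.23 ± 0.46 and -0.11 ± 0.20 on its 3 spots, Snx17, a sorting nexin, -0.23 ± 0.18 and Epb41l4a -0.19 ± 0.53.

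For Cd3e the list held genes of the T cell receptor complex and its signalling. Its 23 other measured spots had means from -0.26 to 0.19 at 24 h with a median of -0.03, and 0 passed the size rule. Cd3g, another chain of the complex, had 0.05 ± 0.13 (SD, n = 6) and Cd247, the zeta chain, -0.04 ± 0.34 on spot 8255, the spots of both being measured. Spots of the list below the intensity limit had wider values, with -0.22 ± 0.19 for Cd3d, 0.55 ± 0.70 for the other Cd247 spot, 0.77 ± 0.78 for Cd2, an adhesion receptor, and -0.69 ± 1.05 for Tcrb. Lck and Zap70, the kinases that act on these chains, had -0.08 ± 0.72 and -0.03 ± 0.25. Il2ra, the interleukin 2 receptor, had -0.26 ± 0.10 with 6 of 6 arrays below 0, Lat -0.23 ± 0.38 and Il7r -0.21 ± 0.67. Leukocyte markers (12 measured spots) ranged from -0.57 for Fcer1g, an Fc receptor chain, to 0.13 for Itgax, an integrin, with Itgam at -0.26 and Ms4a1 at -0.22. The other measured Fcer1g spot, 19531, had -0.13 ± 0.25. In the untreated channels the median ranks of signal over the spots of the T cell list ran from 3.1 to 89.0, the latter being Cd3e, with Sla at 85.5 and Cd5 at 83, and Ptprc, the common leukocyte antigen, had 30.4. These ranks depend on the printed DNA and do not order the genes by expression.

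The label of the cell line could be checked only in part, because ranks of signal among spots do not carry from one printed DNA to another: the 3 spots of carboxypeptidase E (Cpe) had median ranks of 98.4, 42.3 and 3.1 in the untreated channels. Among corticotrope markers Pomc, the ACTH precursor, had 95, Pitx1 98.4, Neurod1 97.3 and 82.1, Tbx19 39.3, Pcsk2 36.1 and Chga 17.7. Of other pituitary lineages, Gh had 25.9 and Gata2 71.1, so the ranks of the marker lists overlapped. Of the 10 measured spots of corticotrope markers, 1 passed the size rule at 24 h, the neuroendocrine factor Neurod1 at -0.61 ± 0.26 on spot 6620, where 0.0487% of all spots passed downward, and its other spot had -0.57 ± 0.52. Chgb, a granule protein, had 0.24 ± 0.99 and Pitx1, a pituitary transcription factor, -0.22 ± 1.02. A dye interaction was called for 5 of the 10 spots, both of Neurod1 and those of Chgb, Pitx1 and Pomc, beside 14.8% of all 14375 spots. Over all spots limma on the 5 time point means called a CRH effect common to all times for 8 spots (0.0557%) and a trend with log2 hours for 0, with 774 and 1028 at an unadjusted p under 0.05. None of the listed spots was among those 8.

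**Figure D5:**
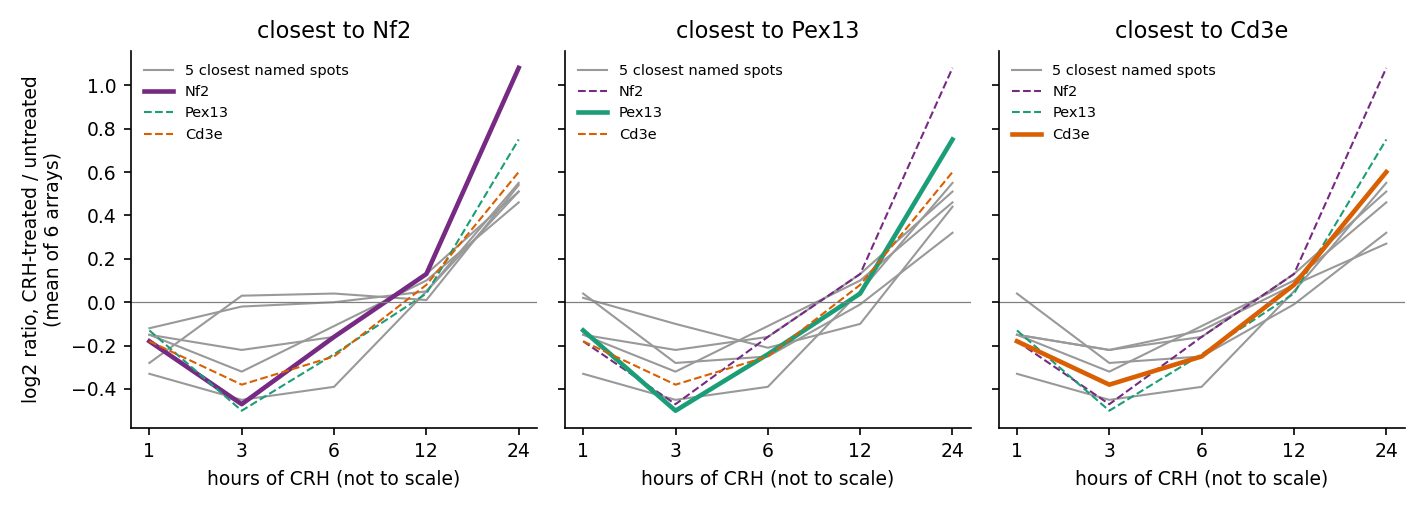
Mean log2 ratio of 6 arrays (y axis) by hours of CRH (x axis, evenly spaced) for each gene in a thick line, the other 2 genes in dashed lines and, in grey, the 5 named spots of other genes with the smallest root mean square difference over the 5 means. For Nf2 the grey lines end at 0.46 to 0.55 at 24 h, below its own 1.08.

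Over the 5 means the 3 genes had similar courses. The root mean square difference between Pex13 and Cd3e was 0.09 on the log2 scale, and 0 of the other spots were closer to either. Pex13 was also the spot closest to Nf2 spot 18124, at 0.16 among the 14374 others, while Cd3e lay at 0.22, with 3 spots closer. Counted from the other side, 7 spots were closer to Pex13 than Nf2 spot 18124 was, and 83 were closer to Cd3e. Nf2 spot 1333 lay at 0.14 from spot 18124, with 1 of 22829 spots closer. The genes were chosen for this course, so their likeness is a description over 5 time points.

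Among 5794 named spots the same few genes came closest to all 3. A spot of guanine nucleotide binding protein, alpha o, a G protein subunit abundant in neural and neuroendocrine cells, had 0.55 at 24 h and lay at 0.27 from Nf2, 0.14 from Pex13 and 0.10 from Cd3e. One of microfibrillar-associated protein 1 had 0.51 and lay at 0.28, 0.17 and 0.09, and one of a shaker-related potassium channel, member 7, had 0.46 and lay at 0.29, 0.16 and 0.09. The adaptor CRADD (CASP2 and RIPK1 domain containing) and Bcl2-associated athanogene 1, both linked to cell death, followed for Nf2 at 0.34 and 0.35. Leucine zipper transcription factor-like 1 was the next for Pex13 at 0.23 and for Cd3e at 0.17, with rcd1 homolog 1 at 0.25 from Pex13 and tubulin beta 5 at 0.17 from Cd3e. The spots of alpha o and CRADD also had a dye interaction (n = 30 arrays, p = 4.9e-07 and 0.0007), while those of microfibrillar-associated protein 1 and the potassium channel did not pass (p = 0.47 and 0.23).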

How the data were processed

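Treated and untreated RNA of each time point were compared on 6 arrays of 48 blocks with 504 spots. The deposited scanner files hold, per spot, a raw spot intensity and a local background intensity for each channel, which the authors quantified from a fixed circle without background subtraction. The deposited value table holds the authors' log2 ratios after loess within blocks for 12593 spots. It served as an alternative and its correlation with the ratios here was 0.9789 to 0.9916 per array over 11341 shared spots. Median channel intensity was 481.8 to 2174.7, and precision is limited by how many arrays there are.

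After the study's methods, 1170 empty and 192 control spots and any spot within the lowest 10% of a channel on any array were left out. Ratios of spot intensity were normalised by loess (span 0.75) in each block in R 4.3.3, with positive values for more RNA under CRH. A linear model per spot over 30 arrays tested the interaction of time point and dye orientation at p under 0.01. CRH effect and trend over log2 hours were fitted with limma 3.58.1 on the 5 time point means, with Benjamini-Hochberg adjustment over all spots. The scripts were tested on simulated data. Alternatives were other normalisations, no intensity filter, normexp background correction, the deposited ratios, blocks for replicate and day, and arrays or times left out. Named were every member spot, list spots past the size rule, the 4 spots of each list with the largest ratio at 24 h, cell type markers and the 5 spots nearest in course. The members and lists were chosen with earlier results of these data known.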

Additional observations from a re-analysis of the deposited data

Results flagged for a closer look

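Cd3e had all 6 arrays below 0 at 3 h, with a mean log2 ratio of -0.38, and all 6 above 0 at 12 h, with a mean of 0.08, and at 24 h, with a mean of 0.60. It was picked out because every array at 3 h lay on the other side of 0 from every array at 12 and 24 h. The 12 h arrays were close to 0, from 0.01 to 0.15. The share of all spots with such a pattern was not counted. The difference was not tested, since the gene was chosen for its course over time. None of the 20 groups of 6 arrays (4 spots at 5 time points) was flagged for a single array far from the rest, where chance alone would flag about 1 in 20. Each group pooled both orientations, so an array far from the others of its own orientation could be missed. At Nf2 spot 1333, the dim 6 h array, replicate 5, read 0.43 beside -0.61 and -0.70 on the other Cy5 arrays, and was not flagged.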

How the results depend on the processing

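The log2 ratios at 24 h kept their sign under the 5 other normalisations, filters and tables run: they lay between 1.00 and 1.11 for Nf2 spot 18124, 0.74 and 0.80 for Pex13 and 0.59 and 0.62 for Cd3e, and the deposited ratios gave 0.87 for Nf2 spot 1333. Leaving out 1 array at a time gave 1.03 to 1.15, 0.70 to 0.81, 0.58 to 0.64 and 0.92 to 1.07. The dye dependence of Nf2 spot 18124 (n = 30 arrays) had p = 0.084 with a single loess curve per array and 0.35 with median centring, and with hours as a single number p was 0.015 for Nf2, 0.032 for Pex13 and 0.94 for Cd3e, with 1088 spots called in place of 2126. The cause was not tested. With the replicate block 1983 spots were called; the numbers do not pair the arrays (correlation of same-numbered arrays -0.0252 to 0.0519). The trend called 4 spots without 1 h and 18 without 3 h, against 0. The CRH effect called 39 spots without 1 h, 5 without 3, 6 or 24 h, and 0 without 12 h, without the filter on dim spots or with a robust prior, against 8. Without that filter, or in the deposited ratios, 2 spots of the Hippo list passed 1.5-fold, both of Nf2. All arrays of a time point share 1 pair of extracts, so no value here includes the spread between cultures.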
